A study of Mus musculus with 31 samples.

Results

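Transcription factors that pattern the forebrain were followed through mouse neural stem cells and medulloblastoma. The 9 genes, Six3, its opposite-strand transcript Six3os1, Emx1, Emx2, Lhx2, Nr2e1, Gsx1, Dlx1 and Dlx2, were chosen from 18194 genes on the array. They were selected with these data known, for levels that set stem cells of the forebrain apart from those of the hindbrain, and Lhx2 also for its level in tumour lines. Those levels are therefore described here and not tested. Each gene was read from 1 probe set, the one with the highest mean over 31 arrays among sets that carry a single gene symbol. Even so, the readings of Emx1, Dlx1 and Dlx2 overlapped between forebrain and hindbrain stem cell cultures, so the name of forebrain genes was not borne out for them here.

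These factors divide the early forebrain into territories. Six3 and Emx2 are homeodomain proteins of the anterior neural plate and the dorsal telencephalon, Lhx2 is a LIM homeodomain protein that selects cortical fate, and Gsx1, Dlx1 and Dlx2 mark the ventral telencephalon, where GABA-producing interneurons arise. Nr2e1, also called Tlx, is an orphan nuclear receptor that keeps adult forebrain stem cells dividing. The hindbrain, from which the cerebellum and medulloblastoma grow, normally forms outside these territories.

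Neural stem cells (NSC) of C57BL/6 mice were grown with EGF and FGF2 as neurospheres, floating cultures that enrich for stem cells, and were collected a few days after plating. Their sources were the forebrain's subventricular zone (SVZ), the region of the IV ventricle and the cerebellar white matter, with 3 wild-type cultures of each taken at postnatal day 7. Stem-like tumour cultures, called cancer stem cells in the labels, came from medulloblastomas of C57BL/6 mice that all carried 1 mutant Ptch allele. There were 8 lines from tumours with wild-type p53, each with matched tumour tissue, and cultures of 2 tumours, 27 and B, from mice also heterozygous for p53. Each p53 heterozygous tumour was measured on 3 technical replicate arrays, averaged here to 1 value, so that this group rests on 2 tumours. The 31 arrays thus held 27 biological samples. Sample names also carry date-like marks whose meaning the labels do not state. No age of the tumour mice was given, and the tissue is a mixture of cell types, in which fewer cells of a type and less RNA per cell cannot be told apart.

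The promoter windows of members that move together or vary between lines are shown first, with capitals for the letters TAAT on either strand, the core that homeodomain proteins bind, and for AAGTCA on either strand, the half-site of Nr2e1. The windows are RefSeq's for GRCm38.p6 and run from 250 bases before to 50 bases after a start. Six3 (chr17:85620584-85620883, plus strand) and Six3os1 (chr17:85618347-85618646, minus strand) start 2437 bases apart and point away from each other. Emx2 lies at chr19:59458440-59458739 on the plus strand and Nr2e1 at chr10:42583541-42583840 on the minus strand.
Six3: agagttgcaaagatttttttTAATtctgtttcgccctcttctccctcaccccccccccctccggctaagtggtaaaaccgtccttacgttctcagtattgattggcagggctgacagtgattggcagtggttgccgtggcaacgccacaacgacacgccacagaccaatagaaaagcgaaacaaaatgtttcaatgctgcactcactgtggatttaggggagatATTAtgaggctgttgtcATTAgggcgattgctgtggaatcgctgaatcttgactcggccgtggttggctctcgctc
Six3os1: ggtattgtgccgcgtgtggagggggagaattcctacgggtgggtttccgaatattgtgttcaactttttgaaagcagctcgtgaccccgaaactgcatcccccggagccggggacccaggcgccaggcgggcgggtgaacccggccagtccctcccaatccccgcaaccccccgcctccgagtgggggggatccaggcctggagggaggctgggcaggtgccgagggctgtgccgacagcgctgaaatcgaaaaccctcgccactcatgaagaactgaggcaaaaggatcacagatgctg
Emx2: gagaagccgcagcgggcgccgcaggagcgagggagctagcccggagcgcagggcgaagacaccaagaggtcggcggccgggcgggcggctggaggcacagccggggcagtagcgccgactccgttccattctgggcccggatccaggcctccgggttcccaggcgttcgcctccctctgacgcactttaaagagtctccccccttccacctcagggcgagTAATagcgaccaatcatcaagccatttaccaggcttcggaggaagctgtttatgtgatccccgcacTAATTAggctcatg
Nr2e1: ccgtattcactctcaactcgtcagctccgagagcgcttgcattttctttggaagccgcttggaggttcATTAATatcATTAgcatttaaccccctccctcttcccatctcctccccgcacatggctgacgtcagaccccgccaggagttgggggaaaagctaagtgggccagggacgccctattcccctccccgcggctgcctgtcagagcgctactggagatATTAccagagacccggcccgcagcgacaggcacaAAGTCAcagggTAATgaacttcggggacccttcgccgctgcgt

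All 9 members matched, with 10 windows among 32851, since Lhx2 has a pair of starts. TAAT stood in 4 of the 10, those of Six3, Emx2, Nr2e1 and Gsx1, and in 58% of all windows. The palindrome TAATTA, which contains TAAT on both strands, stood in the Emx2 window alone among the 10 and in 5.29% of all, and AAGTCA in that of Nr2e1 and in 15.1% of all. The windows of Lhx2, Dlx1, Dlx2, Emx1 and Six3os1 held none of the 3. The 10 windows held 14 to 37 CpG pairs, against a median of 7 and an upper quartile of 20 over all windows, and those of Six3, Gsx1 and Nr2e1 lay under that quartile. G and C made up 50% of the Six3 window, below the median of 52.7% over all windows, and up to 74.7% of the others. Dlx1 and Dlx2 also neighbour each other, on opposite strands with starts 17310 bases apart.

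Values are deposited log2 intensities, on which 1 unit is a 2-fold difference, and differences are given ± SE of a limma fit over all genes. A rough floor came from 3 Y-linked genes in the 15 samples with no Y signal, which read 0.72 to 1.57. The means of 71 olfactory and vomeronasal receptor genes had a median of 1.41. Most of these means lay under 2.28, but a few lay above 2.64 and the highest was 4.39. A level above 1.57 therefore does not by itself show that a gene was expressed. The readings of Emx1 and Gsx1, and those of Six3 outside the SVZ, lie within the range of these means. Readings near or under 1.57 are called the floor here, and a group mean at or below it enters a difference as 1.57, written as "at least". With arrays, the number of samples limits the precision.

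Six3 and Six3os1 were high in the SVZ cultures alone. Six3 read 5.99, 6.44 and 5.21 in the SVZ cultures against 2.91 to 3.37 in the 6 hindbrain cultures, and Six3os1 read 5.38, 5.38 and 5.55 against 1.01 to 1.3. No other sample of the 24 outside the SVZ reached the lowest SVZ culture for either transcript: the p53 wild-type lines read 2.82 to 3.49 for Six3 and 1.04 to 1.43 for Six3os1, and the tissues 2.63 to 3.30 and 1.15 to 1.34. The difference of SVZ from hindbrain NSC was 2.77 ± 0.22 for Six3 and at least 3.87 for Six3os1. The other 2 probe sets of Six3 read 2.01 ± 0.72 and 1.58 ± 0.07 (SD, n = 3) in SVZ cells, with differences of 0.78 and -0.11, so the size of the Six3 difference rests on 1 probe set. Over the 19 cultures Six3 and Six3os1 had a Pearson correlation of 0.96, set largely by the 3 SVZ cultures.

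Emx2 separated the regions as clearly, whereas its relative Emx1 did not. Emx2 read 5.91, 6.10 and 6.06 in SVZ cultures, 1.47, 1.48 and 3.12 in IV ventricle cultures and 1.90, 1.80 and 1.36 in cerebellar cultures. The 3 SVZ cultures lay far above the rest, and among hindbrain cultures only IV ventricle replicate 3 read above 2. The difference of SVZ from hindbrain NSC was 4.17 ± 0.33, an 18.0-fold ratio of intensities. Emx1, which like Emx2 patterns the dorsal cortex, read 3.44 to 3.75 in SVZ and 3.60 to 3.79 in hindbrain cultures, and its other probe set 1.84 to 1.88 in SVZ cultures.

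Lhx2 and Nr2e1 were also high in the SVZ. Lhx2 read 6.95, 7.32 and 6.16 there, 3.60, 2.10 and 3.09 in IV ventricle and 3.49, 2.47 and 2.64 in cerebellar cultures. Nr2e1 read 6.86, 6.61 and 6.10 in SVZ, 1.19, 4.69 and 1.21 in IV ventricle and 4.68, 2.70 and 3.82 in cerebellar cultures. For both genes every SVZ culture lay above every hindbrain culture, but hindbrain levels of Nr2e1 spread from the floor to 4.69. The differences of SVZ from hindbrain NSC were 3.91 ± 0.36 for Lhx2 and 3.48 ± 0.74 for Nr2e1. A second Nr2e1 probe set gave 1.96 for the same difference and read 1.01 to 1.91 in all 6 hindbrain cultures.

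Of the ventral telencephalic members, only Gsx1 separated the regions. Gsx1 read 3.35, 3.70 and 4.03 in SVZ cultures and 2.36 to 2.98 in hindbrain cultures, groups that did not overlap, with a difference of 1.13 ± 0.18. Dlx1 read 1.67 to 2.05 in SVZ and 1.26 to 1.73 in hindbrain cultures. Dlx2 read 1.54 to 2.06 and 1.35 to 1.73. Both Dlx genes thus stayed near the floor in every stem cell culture, SVZ included. The fit called 1.71% of all genes between SVZ and hindbrain NSC, and 5 of the 9 members (Six3, Six3os1, Emx2, Lhx2 and Gsx1) were among them. The members were selected on this contrast, so nothing is read from that count.

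**Figure D1:**
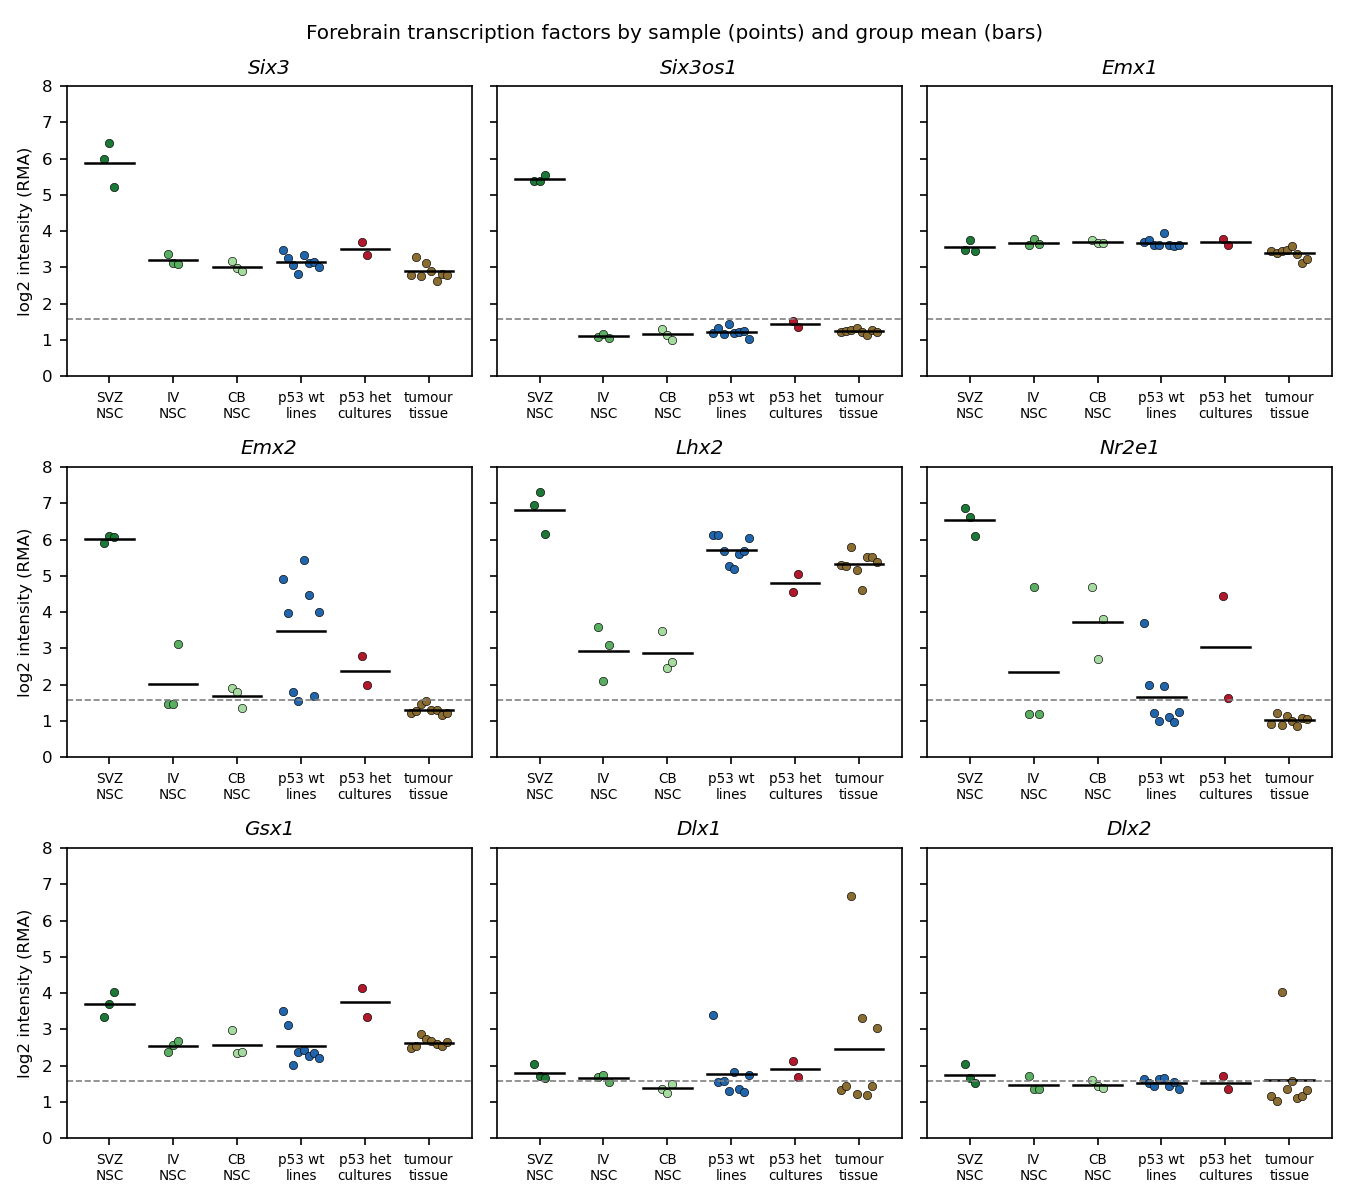
Log2 intensity of each member in 27 samples (points), with group means as black bars, for SVZ, IV ventricle (IV) and cerebellar (CB) neural stem cells, p53 wild-type lines, p53 heterozygous cultures and tumour tissue; the dashed line at 1.57 is the highest reading of the Y-linked genes in samples with no Y signal. Six3 and Six3os1 are high in the 3 SVZ cultures alone, Lhx2 is also high in tumour cultures and tissue, and Emx2 spreads from 1.55 to 5.44 over the 8 p53 wild-type lines.

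Of 25 other forebrain patterning factors measured, 1 was called higher in SVZ than in hindbrain NSC and 0 lower, where 0.863% of all genes were called higher and 0.846% lower, and their median difference was -0.01 against -0.02 over all genes. The exception was Dmrta2, a dorsal telencephalic factor, at 4.36, 4.95 and 3.65 in SVZ against 1.88 to 2.44 in hindbrain cultures, a difference of 2.09 ± 0.24. Gsx2, the relative of Gsx1, read 1.66 to 1.82 in SVZ cells, Dlx5 1.5 to 2.09 and Dlx6 1.63 to 1.80. Gad1, the main enzyme of GABA synthesis, was present in both regions, at 5.57 to 5.78 in SVZ and 4.18 to 6.43 in hindbrain cultures, whereas Gad2 read 1.42 to 1.60 in SVZ cells.

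Genes of proteins that work with these factors were also listed. Among 10 partners of LIM homeodomain proteins, which bind Lhx2 or compete for its cofactor Ldb1, 0 were called in either direction between SVZ and hindbrain NSC. Ldb1 itself read 6.48 ± 0.09 (SD, n = 3) in SVZ cells, and the difference was -0.11 ± 0.15. Of 5 Groucho corepressors, which Six3 recruits, Tle2 was called lower in SVZ cells at -0.98 ± 0.13. None of 9 targets and corepressors of Nr2e1 was called.

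The 2 hindbrain populations were compared with each other by limma, a contrast that had no part in choosing the members. No member was called between IV ventricle and cerebellar NSC, 0 of 9, and 0% of 18194 genes passed the threshold, with 559 genes at an unadjusted p under 0.05. The largest gap among the members was that of Nr2e1, -1.38 ± 0.85 (adjusted p = 0.9999), from 1.19, 4.69 and 1.21 in IV ventricle to 4.68, 2.70 and 3.82 in cerebellar cultures. The groups overlapped through IV ventricle replicate 2, whose name carries a date-like mark of its own. Without that culture the difference was -2.54, and over 14 other settings the adjusted p ranged from 0.151 to 1. The second Nr2e1 probe set averaged 1.39 in IV ventricle and 1.55 in cerebellar cultures, so the size of the Nr2e1 gap rests on 1 probe set. Lhx2 differed by 0.06 ± 0.42 and Emx2 by 0.34 ± 0.38, neither beyond the spread between cultures.

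In the p53 wild-type tumour lines Lhx2 stood high, unlike in any hindbrain stem cell. The 8 lines read 5.68 (tumour 74), 5.70 (91), 6.06 (92), 5.60 (9), 6.11 (49), 6.14 (68), 5.28 (77) and 5.18 (83), against 2.10 to 3.60 in the 6 hindbrain NSC cultures. All 8 lines lay above all 6, by 2.82 ± 0.25 or 7.06-fold, and below the SVZ mean by 1.09 ± 0.31, with no line above the lowest SVZ culture. The 4 lines of one date-like name mark read 5.60 to 6.06 and the 4 of the other 5.18 to 6.14. Lhx2 was selected for this difference, which is therefore a description. Its cofactor Ldb1 did not share it: the lines read 5.89 to 6.39, a difference of -0.44 ± 0.12 from hindbrain NSC.

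Emx2 divided the lines. It read 4.01 (tumour 92), 4.47 (9), 4.91 (49), 3.99 (68) and 5.44 (83), and 1.79 (74), 1.70 (91) and 1.55 (77). The first 5 lines lay above every hindbrain NSC culture and below every SVZ culture, and the other 3 lay at the level of hindbrain cells, with nothing between 1.79 and 3.99. Emx2os, a transcript on the opposite strand beside Emx2 that is read by a separate probe set, was 2.61 (tumour 92), 2.94 (9), 2.40 (49), 2.97 (68) and 3.10 (83), and 2.11 (74), 2.00 (91) and 2.18 (77). The same 5 lines were therefore the upper ones for both transcripts, although Emx2os spanned a narrower range. Line 49 was the lowest of the 5 for Emx2os, at 2.40, and lay close to line 77 at 2.18. All these Emx2os readings lie under the highest mean of the receptor genes, 4.39. The mean difference of the lines from hindbrain NSC was 1.63 ± 0.58 for Emx2, and both date-like marks held lines at the floor and lines well above it.

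**Figure D2:**
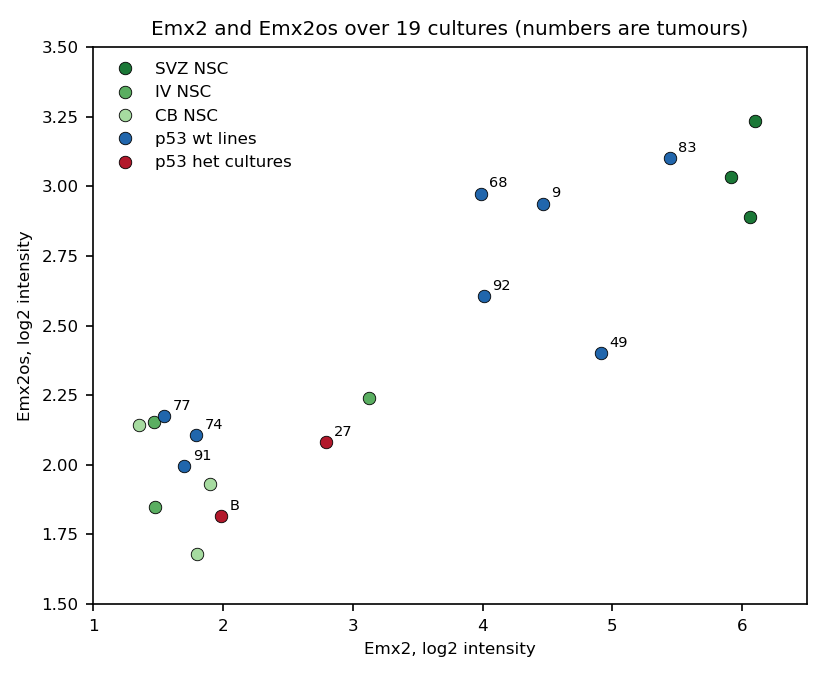
Log2 intensity of Emx2 (x axis) against Emx2os (y axis) in 19 cultures, coloured by group, with tumour cultures named by tumour. The 5 lines 9, 49, 68, 83 and 92 lie between hindbrain and SVZ cells on the x axis, and lines 74, 77 and 91 lie with hindbrain cells.

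The other members did not stand above hindbrain cells in the lines as a group. Nr2e1 read 3.71 in line 49, 2.00 in line 68 and 1.97 in line 83, and 0.96 to 1.25 in the other 5 lines, a mean difference of -1.39 ± 0.59 from hindbrain NSC and -4.87 ± 0.74 from SVZ NSC. The 4 lines of one date-like name mark read 0.96 to 1.25 and the 4 of the other 0.99 to 3.71. The second Nr2e1 probe set gave -0.07 against hindbrain NSC. Line 49 was also the highest line for Gsx1, at 3.52, and for Dlx1, at 3.40. Among the other 7 lines Gsx1 reached 3.13 and Dlx1 1.83. By the probe sets used, line 49 alone of the 8 read above 3 for Emx2, Lhx2, Nr2e1, Gsx1 and Dlx1. That level was picked after the values were seen. The fit called 9.56% of all genes between the lines and hindbrain NSC, and 1 of 9 members, Lhx2, was among them. Lhx2 was selected on this contrast, so nothing is read from that count. This contrast and that of SVZ with hindbrain NSC share the same 6 hindbrain cultures.

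**Figure D3:**
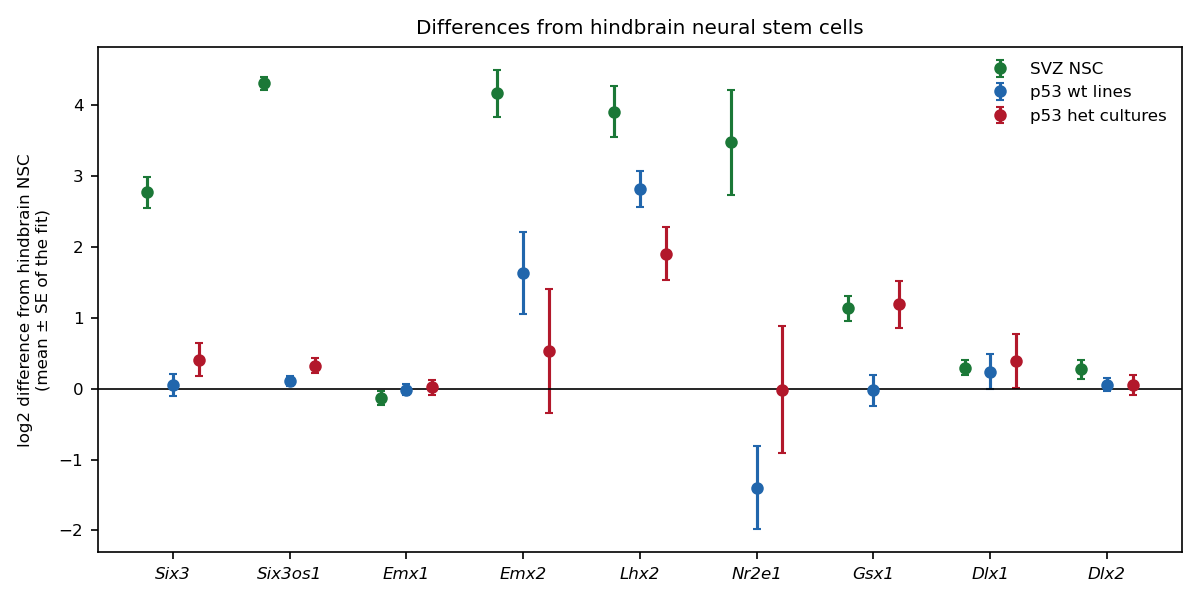
Log2 difference of each member from hindbrain neural stem cells (mean ± SE of the fit) for SVZ stem cells, p53 wild-type lines and p53 heterozygous cultures, which share the same 6 hindbrain cultures. Six3 and Six3os1 differ by 2.77 and 4.31 as fitted in SVZ cells and by 0.41 and 0.33 in p53 heterozygous cultures, while Lhx2 lies at least 1.91 above 0 in all 3 groups.

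The p53 heterozygous cultures were compared with the p53 wild-type lines by limma over 19 cultures, which asks whether p53 heterozygosity goes with other levels. One member was called: Gsx1 was higher, at 4.15 in tumour 27 and 3.35 in tumour B against 2.03 to 3.52 (median 2.36) in the 8 lines. The difference was 1.21 ± 0.32 (adjusted p = 0.0086), a 2.32-fold ratio, although line 49 read above tumour B. Without tumour 27 it was 0.81 with an adjusted p of 0.215, and 18 other settings gave adjusted p-values of 0.000872 to 0.215. The count of 1 in 9 members stands beside 26.3% of all genes called. Gsx1 also followed the name marks of the lines, with 2.03 to 2.35 in 4 lines and 2.38 to 3.52 in the other 4, and since the p53 heterozygous arrays carry marks of their own, mark and genotype cannot be told apart.

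Lhx2 was lower in both p53 heterozygous tumours, at 4.55 in tumour 27 and 5.06 in tumour B, than in every wild-type line, but the difference of -0.91 ± 0.37 missed the threshold (adjusted p = 0.0788; 0.0322 to 0.452 over 19 other settings). Since Lhx2 was selected partly for its level in these lines, its p-values here are a description and no independent test. Both tumours still lay above all 6 hindbrain NSC cultures for Lhx2. Nr2e1 split the tumours, with 4.44 in tumour 27 and 1.63 in tumour B, while the 3 arrays of a tumour spanned only 0.53 and 0.45. The second Nr2e1 probe set read 1.57 to 1.67 over both tumours, so the split rests on 1 probe set. By the set used, the Nr2e1 difference of 1.38 ± 0.87 was within the spread between tumours (adjusted p = 0.292). Emx2 read 2.79 in tumour 27 and 1.98 in tumour B, a difference of -1.09 ± 0.85 (adjusted p = 0.414). Six3, Six3os1, Emx1, Dlx1 and Dlx2 differed by at most 0.36 and were not called.

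Of 25 other forebrain patterning factors 4 were called higher in the p53 heterozygous cultures and 0 lower, where 14.5% of all genes were called higher and 11.8% lower. The list's share called higher was therefore near that of all genes. Dmrta2 rose by 3.22 ± 0.50 (adjusted p = 1.13e-04), to 6.49 in tumour 27 and 5.91 in tumour B from 2.27 to 4.98 in the lines, so that both tumours exceeded even the SVZ cultures. Vax1, a homeodomain factor of the basal forebrain and optic stalk, rose by 1.36 ± 0.23 (adjusted p = 2.69e-04), to 2.91 in tumour 27 and 4.27 in tumour B. Dlx6 rose by 0.70 ± 0.12 (adjusted p = 4.06e-04) and Dlx5 by 0.51 ± 0.15 (adjusted p = 0.0186), both to levels under 2.9. The median difference of the 25 was 0.14 against 0.03 over all genes.

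Of 20 family relatives of the members 6 were called higher and 0 lower, beside the same 14.5% and 11.8% of all genes. Six2 rose by 2.05 ± 0.20 (adjusted p = 8.63e-07) and Six4 by 3.15 ± 0.32 (adjusted p = 1.39e-06), relatives of Six3 known from muscle, kidney and sensory placodes, and Lhx1 by 0.66 ± 0.15 (adjusted p = 0.0026). Six3 itself read 3.70 in tumour 27 and 3.33 in tumour B. Among 11 GABAergic genes and Dlx targets 4 were called higher, Dlx5 and Dlx6 among them, and 1 lower: the neuropeptide gene Npy rose by 1.70 ± 0.24 (adjusted p = 4.07e-05) and the Dlx-linked noncoding gene Dlx6os1 by at least 0.61 (adjusted p = 1.42e-04), while Gad1 fell by 2.73 ± 0.64 on the log2 scale (adjusted p = 0.0037). Gad2 and Gsx2 did not pass, with adjusted p of 0.89 and 0.308.

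Of the 10 LIM homeodomain partners 3 were called lower and 0 higher, where 11.8% of all genes were called lower. Lmo3 fell by 3.26 ± 0.21 (adjusted p = 5.53e-09) and Lmo1 by 3.85 ± 0.27 (adjusted p = 1.46e-08), LIM-only proteins that compete with Lhx2 for Ldb1, and the Ldb1 relative Ldb2 fell by 2.21 ± 0.58 (adjusted p = 0.0086). Ldb1 differed by -0.46 ± 0.17 (adjusted p = 0.0618). Of the 5 Groucho genes 3 were called lower, Tle2 with a fall by 1.84 ± 0.28 (adjusted p = 1.13e-04), Tle5 by 1.40 ± 0.27 (adjusted p = 7.70e-04) and Tle3 by 0.90 ± 0.21 (adjusted p = 0.0041). Of 9 Nr2e1 targets and corepressors the corepressor Hdac3 fell by 1.12 ± 0.12 (adjusted p = 1.86e-06), the cell cycle inhibitor Cdkn1a by 1.83 ± 0.35 (adjusted p = 7.08e-04) and Kdm1a by 0.28 ± 0.10 (adjusted p = 0.0451), and the glial gene S100b rose by 2.13 ± 0.64 (adjusted p = 0.0192).

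Neural stem cell markers differed between the same cultures. Their summed linear intensity over 8 genes was 4633.4 and 5908.7 in the p53 heterozygous tumours against 10188.6 to 14243.6 in the wild-type lines, and 6 of the 8 were called lower. Cell type markers of microglia, 7 genes, summed to 23.6 to 34.2 in every culture. The part of these differences in the values above was not tested.

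Lines and the tissue of the same tumour were compared by limma with the tumour as a block, which asks how far culture keeps or adds these factors. Emx2 was higher in the lines and all but absent from the tissue. The tissues read 1.18 to 1.56 (median 1.29) and the lines 1.55 to 5.44 (median 4.0), and 7 of 8 lines lay above their own tissue. The exception was tumour 77, with 1.55 in the line and 1.56 in the tissue. Lines 74 and 91 exceeded their tissue by only 0.32 and 0.52, near the floor, whereas the other 5 lines read 3.99 to 5.44. Lines 83 and 49 read highest, at 5.44 and 4.91. The difference was at least 1.92 (adjusted p = 0.0040; 0.00166 to 0.0456 over 16 other settings). The adjusted p was 0.0456 in the 4 pairs that share a name mark and 0.0305 in the 4 that do not.

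Lhx2 was present in every tumour tissue. It read 5.79 (tumour 74), 5.53 (91), 5.38 (92), 5.53 (9), 5.29 (49), 5.27 (68), 5.15 (77) and 4.61 (83), all above the 6 hindbrain NSC cultures. The ranges of lines and tissues overlapped. The lines were higher by 0.40 ± 0.12 (adjusted p = 0.0196), a 1.32-fold ratio, in 7 of 8 pairs. Lhx2 was selected partly for its level in these same lines, so its p-values here are a description and no independent test. In the 4 pairs that share a name mark the difference was 0.20 (adjusted p = 0.322) and in the 4 others 0.60 (adjusted p = 0.0286), so it did not pass within the first set. Without tumour 92 the adjusted p was 0.0504, and the range over 17 other settings was 0.00559 to 0.322.

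Emx1 was higher in the lines than in the tissue by 0.29 ± 0.06 (adjusted p = 0.0022), in 8 of 8 pairs, with 3.60 to 3.95 in lines and 3.13 to 3.59 in tissues. The call held in 15 of 16 other settings, and in the 4 pairs that do not share a mark the adjusted p was 0.0845. The other Emx1 probe set overlapped, with 1.75 to 2.34 in lines and 1.75 to 2.06 in tissues. All these Emx1 readings lie under the highest mean of the receptor genes, 4.39, so they do not show that Emx1 was expressed. Of 9 members 3 were called, Emx2, Lhx2 and Emx1, though the level of Lhx2 in these lines had a part in its selection. Of all genes 49.6% were called, 53.5% of them higher in lines, or 66% after median centring. Six3 differed by 0.27 ± 0.10 (adjusted p = 0.0552; 0.00623 to 0.467 over 16 other settings) and Nr2e1 by at least 0.086 (adjusted p = 0.0941), neither called. Nr2e1 read 0.85 to 1.22 in the tissues, at the floor in all 8. Gsx1 read 2.48 to 2.88 and Six3os1 1.15 to 1.34, neither called.

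**Figure D4:**
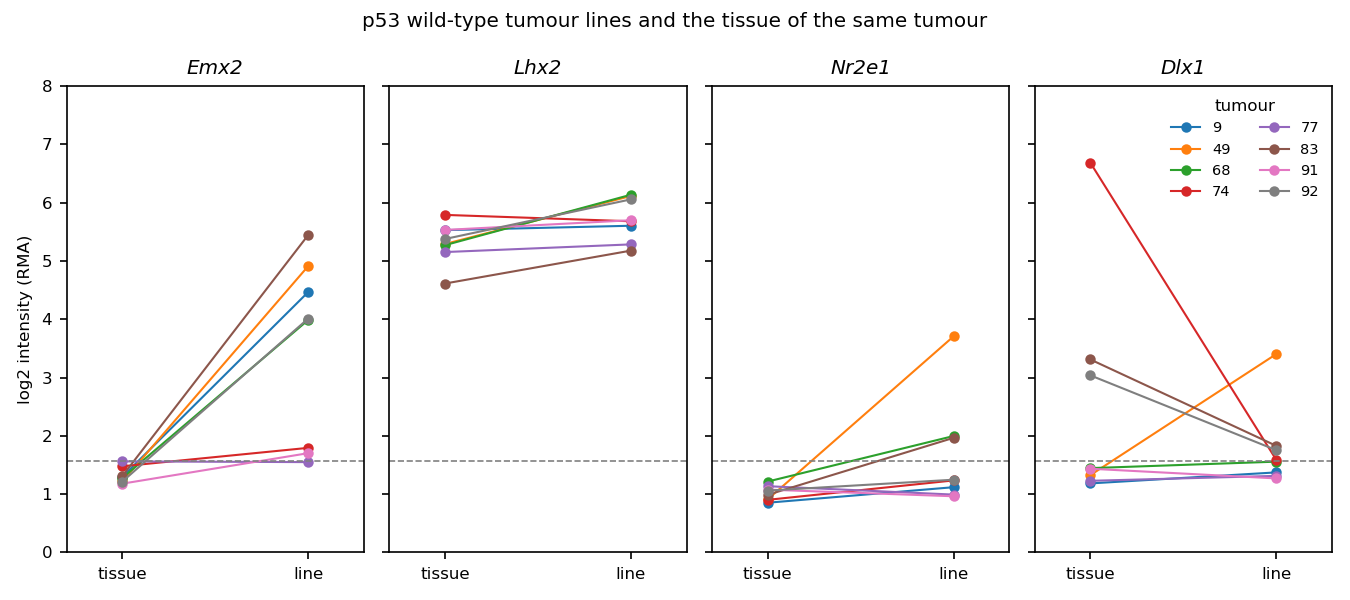
Log2 intensity of Emx2, Lhx2, Nr2e1 and Dlx1 in 8 tumour tissues (left) and the lines grown from them (right), joined by tumour; the dashed line is at 1.57. Emx2 is at the floor in the tissues and well above it in 5 lines, Lhx2 is high on both sides, and Dlx1 is high in tissue 74 at 6.68 and not in its line at 1.59.

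Dlx1 and Dlx2 were near the floor in most tissues and high in one. Dlx1 read 6.68 in tissue 74, 3.31 in tissue 83 and 3.04 in tissue 92, and 1.18 to 1.45 in the other 5. Dlx2 read 4.03 in tissue 74 and 1.04 to 1.57 in the other 7. The line of tumour 74 read 1.59 for Dlx1 and 1.45 for Dlx2. Over all 8 pairs neither was called. Dlx1 differed by -0.70 ± 0.62 (adjusted p = 0.381), and Dlx2 had an adjusted p of 0.876, with lines and the tissues other than 74 near the floor.

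The genes that Dlx1 and Dlx2 switch on in the forebrain were not high in tissue 74. Dlx5 read 1.67 there, Dlx6 1.76 and Dlx6os1 1.10, and the highest tissue for each was 91, at 2.68, 2.87 and 1.86. Gad2 read 1.58 in tissue 74 and 1.41 to 1.74 in all tissues. Gad1 varied widely, with 7.79 in tissue 68, 7.70 in tissue 83, 5.32 in tissue 9, 5.27 in tissue 91, 4.37 in tissue 92, 2.74 in tissue 74, 1.91 in tissue 77 and 1.58 in tissue 49. Its order was therefore not that of Dlx1. The 6 measured forebrain neuroblast markers summed to 2123.1 in tissue 74 and 1045.6 to 2282.0 over all tissues. Among them Dcx, which granule neuron precursors also express, read 10.99 in tissue 74 and 9.93 to 11.05 over all tissues.

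**Figure D5:**
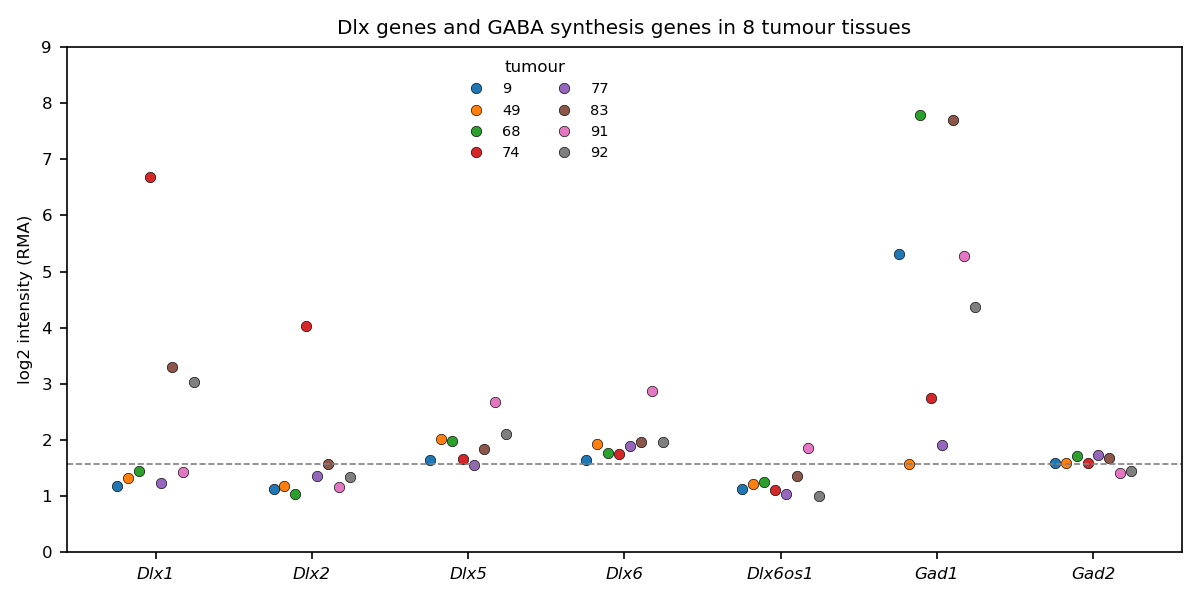
Log2 intensity of Dlx1, Dlx2, Dlx5, Dlx6, Dlx6os1, Gad1 and Gad2 in 8 tumour tissues, coloured by tumour, with the dashed line at 1.57. Tissue 74 is highest for Dlx1 and Dlx2, at 6.68 and 4.03, and lies with the other tissues for Dlx5, Dlx6, Dlx6os1 and Gad2.

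The same lists were counted between lines and tissue, where 26.6% of all genes were called higher in the lines and 23.1% lower. Of 10 LIM homeodomain partners 4 were higher and 5 lower: Lmo3 was higher by 2.79 ± 0.12 (adjusted p = 5.00e-08), Ldb2 by 2.58 ± 0.22 (adjusted p = 5.80e-06), Lmo1 by 3.05 ± 0.32 (adjusted p = 2.28e-05) and Ssbp4 by 0.67 ± 0.10 (adjusted p = 2.70e-04). In the other direction Ssbp3 fell by 1.01 ± 0.09 (adjusted p = 1.10e-05), Ldb1 by 0.71 ± 0.07 (adjusted p = 1.41e-05) and Lmo2 by 2.15 ± 0.23 (adjusted p = 2.34e-05). Of 25 forebrain factors 4 were higher and 4 lower, among them Dmrta2 at 1.10 ± 0.28 (adjusted p = 0.0076) and Pax6, which granule neurons also use, at -2.87 ± 0.10 (adjusted p = 1.13e-08). Of 20 relatives 5 were higher and 2 lower, with Lhx1, at 7.83 to 8.53 in tissue, lower in the lines by 6.25 ± 0.13 (adjusted p = 3.94e-10).

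Among 11 GABAergic genes and Dlx targets 1 was higher and 2 lower in the lines, Calb2, a calcium-binding protein also made by cerebellar granule cells, with a fall by 3.5 ± 0.28 (adjusted p = 3.74e-06). The Groucho genes split, with Tle2 higher by 2.38 ± 0.18 (adjusted p = 2.79e-06) and Tle1 lower, at -1.85 ± 0.09 (adjusted p = 7.14e-08), and 3 higher and 2 lower in all. Of 9 Nr2e1 targets and corepressors 3 were higher and 3 lower, with Cdkn1a higher by 1.99 ± 0.22 (adjusted p = 3.32e-05) and the astrocyte filament gene Gfap lower, at -3.64 ± 0.39 (adjusted p = 2.89e-05). All 7 microglial and all 6 endothelial markers were higher in tissue, where microglial sums were 676.6 to 1744.2, and all 8 granule lineage markers were too. Choroid plexus markers summed to 4226.7 in tissue 92, 1246.6 in tissue 49 and 36.2 to 54.7 in the other tissues. The part of these cell types in the tissue values of the members was not tested.

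Ordered by group mean, Lhx2 ran from SVZ NSC over p53 wild-type lines, tissue and p53 heterozygous cultures to hindbrain NSC, with ranges that overlapped between lines and tissue, between tissue and p53 heterozygous cultures and between both hindbrain groups. For Emx2 only SVZ NSC stood clear of the next group, and all other neighbours in the order overlapped. Nr2e1 was likewise clear only between SVZ and cerebellar NSC. For Gsx1 the p53 heterozygous cultures and SVZ NSC overlapped at the top, at 3.75 ± 0.57 (SD, n = 2) and 3.69 ± 0.34 (SD, n = 3), and stood above the mean of every other group, with no overlap of SVZ NSC and tissue. The p53 wild-type lines did overlap both, since line 49 read 3.52 and the lowest SVZ culture and tumour B each 3.35. The levels of Emx1 overlapped between all neighbours in the order.

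The genes most like each member over the 19 cultures were taken among 7470 genes with a range of at least 1 log2 unit, for the 6 members that read over 4 in some culture. These correlations are descriptions, and for members high in the SVZ they lean on the same 3 cultures. Six3 and Six3os1 were closest to Sulf1, a heparan sulphate sulphatase that acts outside the cell, with r of 0.96 and 0.97. Sulf1 read 4.10 to 4.70 in SVZ cultures and 1.37 to 2.13 in all others of the 19. Stx11 followed for both, with r of 0.90 and 0.89, and then Sp8, a zinc finger factor of forebrain neuroblasts (0.89), for Six3 and the urea transporter gene Slc14a2 (0.88) for Six3os1.

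Emx2 was closest to Emx2os, at r = 0.90, then Stx11 (0.79) and Slc5a3 (0.78). Lhx2 had no such close companion: Spata13 (0.81), Adgrg6 (0.80) and Gpc6 (0.80) came nearest. Spata13 read 5.55 to 6.69 in the p53 wild-type lines, 5.94 to 6.40 in SVZ and 3.30 to 5.38 in hindbrain cultures. Nr2e1 lay nearest to the sorting receptor gene Sorl1 (0.85), Nuak2 (0.84) and Chrna4 (0.84). Gsx1 lay nearest to the potassium-chloride transporter gene Slc12a7 (0.91), Pdlim1 (0.87) and Scrn1 (0.87), and Slc12a7 read 6.21 in tumour 27, 4.61 in tumour B and 4.81 in line 49, the culture that was highest among the lines for Gsx1 as well.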

How the data were processed

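The deposited table holds log2 intensities per probe set for 31 Affymetrix mouse arrays, made by the authors with RMA per the submitters' processing notes. The sources used here name no RMA settings, detection calls or build. Values were used as deposited. Of 45101 probe sets, 34958 carried 1 gene symbol, and the set with the highest mean stood for each of 18194 genes, with no filter on low values.

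limma 3.58.1 in R 4.3.3 (lmFit, eBayes, two-sided) was fitted on 9 NSC arrays, on 19 cultures with technical replicates averaged, and on 8 line and tissue pairs with the tumour as a block. p-values were adjusted over all genes (Benjamini-Hochberg, 0.05), and the fits were checked on simulated data. Spread is measured between these samples, and nothing says the cultures come from separate animals. Replicate numbers did not pair IV ventricle with cerebellar cultures (correlations of deviations 0.38, -0.14 and -0.06). Every same-numbered pair of SVZ with IV ventricle (0.32, 0.25 and 0.32) and with cerebellar cultures (0.18, 0.34 and 0.17) correlated above 0.1, so the SVZ contrast was also fitted with the number as a block. Lines and tissues share a tumour by their labels.

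The members, gene lists and floors were chosen with earlier results of these data known. All members are named. Of a list, up to 4 called genes by smallest p in each direction could be named, and Gsx2, Dlx5, Dlx6, Gad1, Gad2 and Ldb1 always. Dmrta2 and Tle2 in the SVZ contrast, Dlx6os1 and Dcx in the tissues, and the genes of the closing observations were chosen after their values were seen. Python 3.11.15 with pandas 2.3.3 and matplotlib 3.10.9 made the summaries and figures. Alternatives were other scalings, probe sets, priors, blocks, sets of arrays, name marks and leaving out each sample.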

Additional observations from a re-analysis of the deposited data

Results flagged for a closer look

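In each group of 8, the highest and lowest sample of every member was set against its nearest neighbour by Dixon's ratio, and 5 of 18 combinations of member and group stood apart. Chance sets apart about 1 group in 20 where groups are independent and values are normally spread. Here some combinations share a sample and many readings lie near the floor, so the count is not read against that rate. In the tissue of tumour 74, Dlx1 read 6.68 with the next tissue at 3.31, and Dlx2 read 4.03 with the next at 1.57. In line 49, Nr2e1 read 3.71 with the next line at 2.00, and Dlx1 read 3.40 with the next at 1.83. Emx1 read 3.95 in line 83 with the next line at 3.75. The cause of these gaps was not tested.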

How the results depend on the processing

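Over the planned and added settings, 729 values of single members kept their direction and side of the threshold or stayed within the spread, 9 gained and 5 lost a call, 5 moved and 1 reversed, and 126 counts stayed within 1.5 times while 8 did not. A difference called in neither setting was counted as kept even where its sign turned. Dlx2 between lines and tissue was -0.07 with all pairs and 0.29 without pair 74 (-0.15 to 0.29 leaving out each pair). Without pair 74 both group means of Dlx2 lie under the floor of 1.57. Between IV ventricle and cerebellar NSC 9 genes were called with the date mark as a block and 0 to 7 leaving out each culture, 7 without IV ventricle replicate 2. With the replicate number as a replicate block 0 genes and 0 members were called there, 435 genes in place of 311 were called between SVZ and hindbrain NSC with the same 5 members among them, and with no replicate block 8984 genes and 3 members were called between lines and tissue, Six3 (adjusted p = 0.0397) in place of Lhx2 (adjusted p = 0.0569). Between p53 genotypes the members called were 0 without dim genes, 2 with only the tumour cultures (Lhx2 added, adjusted p = 0.0322), 2 with technical replicate 1 only (Six3os1 added, adjusted p = 0.011) and 0 to 1 leaving out each culture, 0 without tumour 27. Between lines and tissue the members called were 1 without dim genes and 2 to 4 leaving out each pair, and 5935 genes were called in the 4 pairs with different date marks, a setting chosen after seeing the data. Without dim genes Lhx2 is the only member left to test. Median centring made 66% of the genes called between lines and tissue higher in lines, against 53.5%, and called Six3 (adjusted p = 0.0181). Other probe sets moved the SVZ difference to 0.78 and -0.11 for Six3 and 1.96 for Nr2e1, and all sets together gave 1.15 for Six3. For dim members, intensity near the floor limits what can be told, and the p53 heterozygous group rests on 2 tumours.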

Other observations

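Other forebrain factors also varied from tumour to tumour. The genes given here were picked after their values were seen. Otx1, a homeodomain factor of forebrain and midbrain that is also made in granule precursors, read 6.74 in tissue 91, 6.32 in tissue 9 and 5.97 in tissue 83, 4.24 in tissue 49, and 2.06 to 3.53 in the other 4, while all 8 lines read 1.84 to 3.29. Isl1, a LIM homeodomain factor of striatal and motor neurons, read 5.98 in tissue 77 and 1.83 to 3.59 in the other 7. Lhx3, another LIM homeodomain factor of motor neurons, read 5.66 in tissue 91 and 2.55 to 3.83 in the other 7. No tissue was the highest for more than 1 of Otx1, Isl1 and Dlx1, and tissue 91 was highest for both Otx1 and Lhx3.

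Meis2, a homeodomain cofactor of striatal and olfactory interneurons, was high in all 9 NSC cultures, at 6.97 to 7.83. Among the p53 wild-type lines it read 6.81 in line 68, 6.55 in line 83 and 4.84 in line 91, and 1.62 to 2.34 in the other 5. Lines 68 and 83 were also among the 5 with raised Emx2, but line 91 was not, and lines 9, 49 and 92 had raised Emx2 with low Meis2. Dmrta2 read 4.98 in line 83, just above the highest SVZ culture at 4.95, and 2.27 to 3.44 in the other 7 lines.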
